A study of Homo sapiens with 17 samples.

Results

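Kinesins are motor proteins that use ATP to move along microtubules or to take microtubules apart at their ends. The genes examined here are all those whose symbol starts with KIF followed by a digit or a C, which gave 28 of the 9699 protein-coding transcripts in the deposited table, each with an RNA-Seq and a Ribo-Seq (ribosome profiling) level in 6 columns. By textbook role 11 of them were mitotic kinesins, 13 were transport kinesins and 4 had another or a mixed role (KIF2A, KIF7, KIF24 and KIF26B). The listed mitotic genes KIF2B, KIF4B and KIF18B and the listed transport genes KIF1A, KIF5C, KIF21B and KIFC2 were not analysed here.

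Mitotic kinesins build the bipolar spindle, move and align chromosomes and take part in the separation of daughter cells. Their transcripts are known to peak in cycling cells as division approaches. Most transport kinesins carry vesicles, organelles, RNA and ciliary components away from the cell centre in dividing and non-dividing cells alike, usually through adaptor chains. Dynein moves cargo the opposite way, and KIFC3, listed here with the transport kinesins, is also a minus-end motor. In fibroblasts that leave the cycle, the first group serves a process that has stopped and the second group serves one that goes on.

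The study followed BJ cells, a human fibroblast line immortalized with telomerase (hTERT), by RNA-Seq (9 samples) and by Ribo-Seq, the sequencing of ribosome-protected fragments (8 samples). Proliferating cells grew under normal conditions in serum, and quiescent cells (Q) had their serum depleted. Pre-senescent (preS) and senescent (S) cells carried hTERT and a tamoxifen-inducible RASG12V and were treated with 4-OHT-Tamoxifen, over 5 days for preS and over 14 days for S. Transformed cells (Tr) carried hTERT, p16INK4A-KD, another stable knockdown, SV40 small T and the retroviral vector pBabe-puro-RASG12V. All cells therefore expressed hTERT, the RAS state of the proliferating cells was not labelled, and every state came from derivatives of 1 cell line under viral constructs.

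Each state except the proliferating one has 1 column per assay, and the proliferating cells have 2, from different sequencing runs. The proliferating samples C1 and C2 of the first sequencing run share a column (C12), as do both quiescent samples in each assay and both pre-senescent RNA samples, and these joined values are the authors' own, with no error attached. The proliferating sample C3, the senescent sample and the transformed sample belong to a second run. No test between states was made. A difference is called here when it reached 2-fold, and the only measured spread is the gap between the proliferating columns C12 and C3, which also differ in run. By the paper, the RNA samples of the first run were sequenced as paired ends, and those of C3, S and Tr were not. Quiescent and pre-senescent columns were compared with C12 and so share that control, and senescent and transformed columns were compared with C3 and share it. Levels are FPKM, fragments scaled to the length of the transcript and to the reads of the library, and the authors raised every value below 1 to 1, so that a fold against a column at 1 is a lower bound. Values are given below by column as C12, C3, Q, preS, S and Tr, where Tr is the column labelled transformed.

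Checks of the columns against their labels gave mixed answers. The Ribo-Seq samples titled S and C3 carry each other's condition label and were grouped by title: across 9699 transcripts the Ribo-Seq column S correlated with RNA column S at r = 0.897 and with RNA column C3 at r = 0.780, and Ribo-Seq column C3 correlated at r = 0.875 with RNA column C3 and at r = 0.796 with RNA column S. CDKN2A RNA, which should be lower under a p16INK4A knockdown, was 12.6 FPKM in the column labelled transformed against 6.75 in C3. CDKN2A Ribo-Seq was 5.51 against 8.92. In C12 the levels were 17.2 FPKM in RNA and 13.0 in Ribo-Seq, above the column labelled transformed in both assays. Against C3 the assays differed in direction, so the column is called by its label only. HRAS RNA ranged from 312 FPKM in the column labelled transformed to 2415 in C12, and was 1284 in C3. HRAS Ribo-Seq was 212 FPKM in the column labelled transformed against 2058 in C3. The column of the cells given the RASG12V vector thus had the lowest HRAS level in both assays, and the reason was not tested. All 8 fibroblast markers were in the table, with a summed RNA level of 5467 to 7888 FPKM. Of these 8 markers, 5 were called lower in RNA in the senescent column, where 13.2% of all transcripts were. PDGFRB was among them at 4.49 against 48.5 FPKM in C3. Against C12, 3 of the calls held, where 17.6% of all transcripts were lower. The part of these markers in the kinesin values was not tested. Of 4 listed epithelial markers, KRT8 and KRT18 were in the table, at a summed 103 to 273 FPKM of RNA, and EPCAM and CDH1 were not. None of the 3 listed leukocyte and 3 listed endothelial markers was in the table.

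The stretches upstream of the annotated starts of the mitotic kinesins are shown because the direction of the 11 mitotic genes was shared in 3 of the 4 comparisons below. Cell cycle promoters active before division are known to carry CCAAT boxes, bound by NF-Y, and a cell cycle genes homology region (CHR). Windows were taken from RefSeq on GRCh38.p14 for 24 of the 28 kinesins. KIF13B, KIFC3, KIF5A and KIF26B had none in the table used. The searched letters were CCAAT or ATTGG for the CCAAT box, TTTGAA or TTCAAA for the CHR and TTCGAA for a CHR variant, which covers both strands, and no matches overlap in the lines printed. In each line below the last base is the base before the start and capitals mark a match to one of these letters. The first set holds mitotic kinesins with both motifs, namely KIF11 (chr10:92592980-92593129, plus strand), KIF18A (chr11:28108157-28108306, minus strand), KIF23 (chr15:69414199-69414348, plus strand) and KIF4A (chrX:70289954-70290103, plus strand).
KIF11: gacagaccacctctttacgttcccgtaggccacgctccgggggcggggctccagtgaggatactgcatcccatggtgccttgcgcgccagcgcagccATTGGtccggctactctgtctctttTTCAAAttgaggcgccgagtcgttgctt
KIF18A: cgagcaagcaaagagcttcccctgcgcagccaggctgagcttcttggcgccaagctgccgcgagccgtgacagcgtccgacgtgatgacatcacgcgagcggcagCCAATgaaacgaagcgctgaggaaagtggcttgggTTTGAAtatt
KIF23: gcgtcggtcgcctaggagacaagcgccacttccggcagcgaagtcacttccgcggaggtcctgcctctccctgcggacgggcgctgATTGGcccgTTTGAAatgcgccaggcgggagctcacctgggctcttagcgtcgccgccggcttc
KIF4A: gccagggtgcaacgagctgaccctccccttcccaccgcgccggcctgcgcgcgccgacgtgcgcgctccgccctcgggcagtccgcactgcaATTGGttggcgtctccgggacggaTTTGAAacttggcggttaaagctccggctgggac

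The next lines hold the mitotic genes with the largest senescent differences that lack one or both motifs, KIF20A (chr5:138178962-138179111, plus strand), KIFC1 (chr6:33391673-33391822, plus strand) and KIF2C (chr1:44739687-44739836, plus strand), and the most abundant transport kinesin, KIF5B (chr10:32056426-32056575, minus strand). KIF20A and KIFC1 each had 2 CCAAT boxes and no CHR in the 250 bases searched, KIF2C had neither, and KIF5B had a CCAAT box and a CHR 140 bases before its start.
KIF20A: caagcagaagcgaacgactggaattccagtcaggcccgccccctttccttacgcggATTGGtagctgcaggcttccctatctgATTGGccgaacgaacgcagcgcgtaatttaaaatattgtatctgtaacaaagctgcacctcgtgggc
KIFC1: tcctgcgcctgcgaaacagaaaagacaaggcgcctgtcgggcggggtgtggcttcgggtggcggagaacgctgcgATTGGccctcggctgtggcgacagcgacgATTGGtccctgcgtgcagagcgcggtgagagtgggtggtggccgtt
KIF2C: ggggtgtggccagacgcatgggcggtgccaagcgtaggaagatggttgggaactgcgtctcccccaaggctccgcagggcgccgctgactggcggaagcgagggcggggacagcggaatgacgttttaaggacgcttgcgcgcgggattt
KIF5B: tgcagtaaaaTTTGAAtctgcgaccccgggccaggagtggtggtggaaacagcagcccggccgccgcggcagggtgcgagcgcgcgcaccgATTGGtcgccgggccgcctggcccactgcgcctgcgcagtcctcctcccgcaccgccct

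In 250 bases, a CCAAT box was found in 9 of 12 windows of mitotic kinesins (75.0%), in 4 of 12 windows of transport kinesins (33.3%) and in 32.0% of all 35116 windows. A CHR or its variant was found in 7 of 12 mitotic windows (58.3%), in 1 of 12 transport windows (8.33%) and in 14.3% of all windows. KIF22 has 2 windows that overlap, and its CHR variant is the same site in both. Both stood together in 5 of 12 mitotic windows (41.7%) and in 5.05% of all windows. In KIF11 the CCAAT box began 53 and the CHR 28 bases before the start, in KIF4A 58 and 34, in KIF23 64 and 55, and in KIF18A 45 and 10, so that the CHR lay nearer the start each time. A match to these letters is a description of the window and was not tied to binding of any factor.

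The mitotic kinesins shared 1 pattern in RNA. In 11 of 11 the senescent column was the lowest of the 6, the proliferating column of run 1 was the highest, and the quiescent column was below the pre-senescent one. Ribo-Seq followed for the senescent column (lowest in 11 of 11), while the quiescent column was below the pre-senescent one in 7 of 11. RNA was at the floor of 1 FPKM in the senescent column for 7 of 11 and Ribo-Seq for 6 of 11, against 5.26% and 5.73% of all 9699 transcripts, and no mitotic kinesin was at the floor in any other column. In bulk samples, fewer cells that express a gene and less RNA per cell cannot be told apart.

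KIF11 (Eg5) is the bipolar motor that pushes spindle poles apart. Its RNA was 28.8 FPKM in C12, 26.0 in C3, 16.6 in Q, 18.4 in preS, 1 in S and 19.7 in Tr. Its Ribo-Seq level was 48.8 FPKM in C12, 49.3 in C3, 27.3 in Q, 26.1 in preS, 1.84 in S and 46.1 in Tr. Both proliferating columns were close and above all other states in RNA, and the senescent column stood alone near the floor, RNA being at least 26.0-fold lower and Ribo-Seq 26.8-fold lower than in C3. KIF15, which can back up KIF11 in keeping the spindle bipolar, was less abundant, with RNA of 9.15 FPKM in C12, 7.12 in C3, 5.44 in Q, 5.65 in preS, 1 in S and 5.90 in Tr. Its Ribo-Seq level was 15.6 FPKM in C12, 10.4 in C3, 7.04 in Q, 6.31 in preS, 1 in S and 10.1 in Tr, and quiescent and pre-senescent cells both fell past 2-fold in Ribo-Seq (2.21-fold lower and 2.47-fold lower) where RNA did not (1.68-fold lower and 1.62-fold lower). KIFC1, a minus-end motor that bundles spindle microtubules and gathers poles, had RNA of 53.0 FPKM in C12, 34.6 in C3, 25.1 in Q, 34.0 in preS, 1.20 in S and 36.2 in Tr. In Ribo-Seq it stood at 66.1 FPKM in C12, 38.3 in C3, 35.2 in Q, 39.2 in preS, 1 in S and 39.7 in Tr. Its senescent RNA was 28.9-fold lower and its Ribo-Seq at least 38.3-fold lower than in C3, whereas the column labelled transformed differed from C3 by less than the gap between proliferating columns.

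Among the motors that act on chromosomes and their attachments, KIF2C (MCAK), which depolymerizes microtubules at kinetochores, had RNA of 58.7 FPKM in C12, 37.1 in C3, 25.2 in Q, 39.5 in preS, 1 in S and 32.3 in Tr. KIF2C Ribo-Seq was 107 FPKM in C12, 50.8 in C3, 41.6 in Q, 54.5 in preS, 1 in S and 52.6 in Tr. It was at the floor in both assays in senescence, at least 37.1-fold lower in RNA and at least 50.8-fold lower in Ribo-Seq, while C3 itself was 2.10-fold lower than C12 in Ribo-Seq. KIF18A, which damps chromosome oscillations at the metaphase plate, had RNA of 12.7 FPKM in C12, 7.44 in C3, 5.13 in Q, 9.80 in preS, 1.10 in S and 6.26 in Tr. Its Ribo-Seq values were 10.5 FPKM in C12, 10.4 in C3, 3.81 in Q, 5.77 in preS, 1.35 in S and 10.2 in Tr, so that quiescent cells had the lowest level outside senescence in both assays. KIF22 and KIF4A are chromokinesins, which ride on chromosome arms. KIF22 RNA was 55.0 FPKM in C12, 34.8 in C3, 26.6 in Q, 35.7 in preS, 3.90 in S and 40.9 in Tr, and KIF22 Ribo-Seq was 85.3 FPKM in C12, 41.7 in C3, 44.7 in Q, 48.5 in preS, 3.92 in S and 46.3 in Tr. With KIF23 it kept the highest senescent level of the group. KIF4A RNA was 15.5 FPKM in C12, 13.7 in C3, 8.42 in Q, 12.3 in preS, 1 in S and 11.2 in Tr, and KIF4A Ribo-Seq was 23.1 FPKM in C12, 17.2 in C3, 11.7 in Q, 17.2 in preS, 1 in S and 17.1 in Tr. KIF4B is a near-identical copy and the authors counted uniquely mapped reads only, so the KIF4A level is uncertain.

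The motors of the central spindle and cytokinesis included the member with the largest senescent bound. KIF20A, which moves Aurora B to the central spindle at anaphase, had RNA of 64.9 FPKM in C12, 38.1 in C3, 25.9 in Q, 27.7 in preS, 1 in S and 19.9 in Tr. Its Ribo-Seq level was 101 FPKM in C12, 53.5 in C3, 43.5 in Q, 32.1 in preS, 1 in S and 33.1 in Tr. KIF20A was at least 38.1-fold lower in RNA and at least 53.5-fold lower in Ribo-Seq in senescence, which with the floor values taken as they stand was the 13th lowest of 9560 RNA differences, with KIF2C at 14, KIFC1 at 27 and KIF11 at 31. It was also the 1 mitotic kinesin called lower in RNA in pre-senescent cells (2.35-fold lower), and it had the lowest ratio of all 11 in the column labelled transformed, 1.91-fold lower in RNA. KIF23, the motor of the centralspindlin complex with RACGAP1, had RNA of 58.2 FPKM in C12, 42.2 in C3, 21.8 in Q, 33.3 in preS, 3.29 in S and 36.1 in Tr. KIF23 Ribo-Seq was 70.1 FPKM in C12, 52.4 in C3, 24.1 in Q, 21.0 in preS, 5.79 in S and 45.1 in Tr. In both assays its quiescent and pre-senescent columns lay under both proliferating columns and far over the senescent one.

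KIF14, which recruits citron kinase for the last step of cytokinesis, had RNA of 6.59 FPKM in C12, 6.22 in C3, 4.41 in Q, 5.67 in preS, 1 in S and 5.42 in Tr. The Ribo-Seq level of KIF14 was 7.50 FPKM in C12, 8.44 in C3, 4.07 in Q, 4.67 in preS, 1 in S and 11.1 in Tr. KIF20B, which acts late in cytokinesis, had RNA of 14.7 FPKM in C12, 8.01 in C3, 8.60 in Q, 10.3 in preS, 1 in S and 4.60 in Tr. The Ribo-Seq level of KIF20B was 16.0 FPKM in C12, 13.9 in C3, 6.65 in Q, 14.1 in preS, 1.44 in S and 19.2 in Tr. Both had their highest Ribo-Seq level in the column labelled transformed, although RNA there was under both proliferating columns, and these were the only mitotic members whose Ribo-Seq maximum was outside a proliferating column (9 of 11 had it inside).

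**Figure D1:**
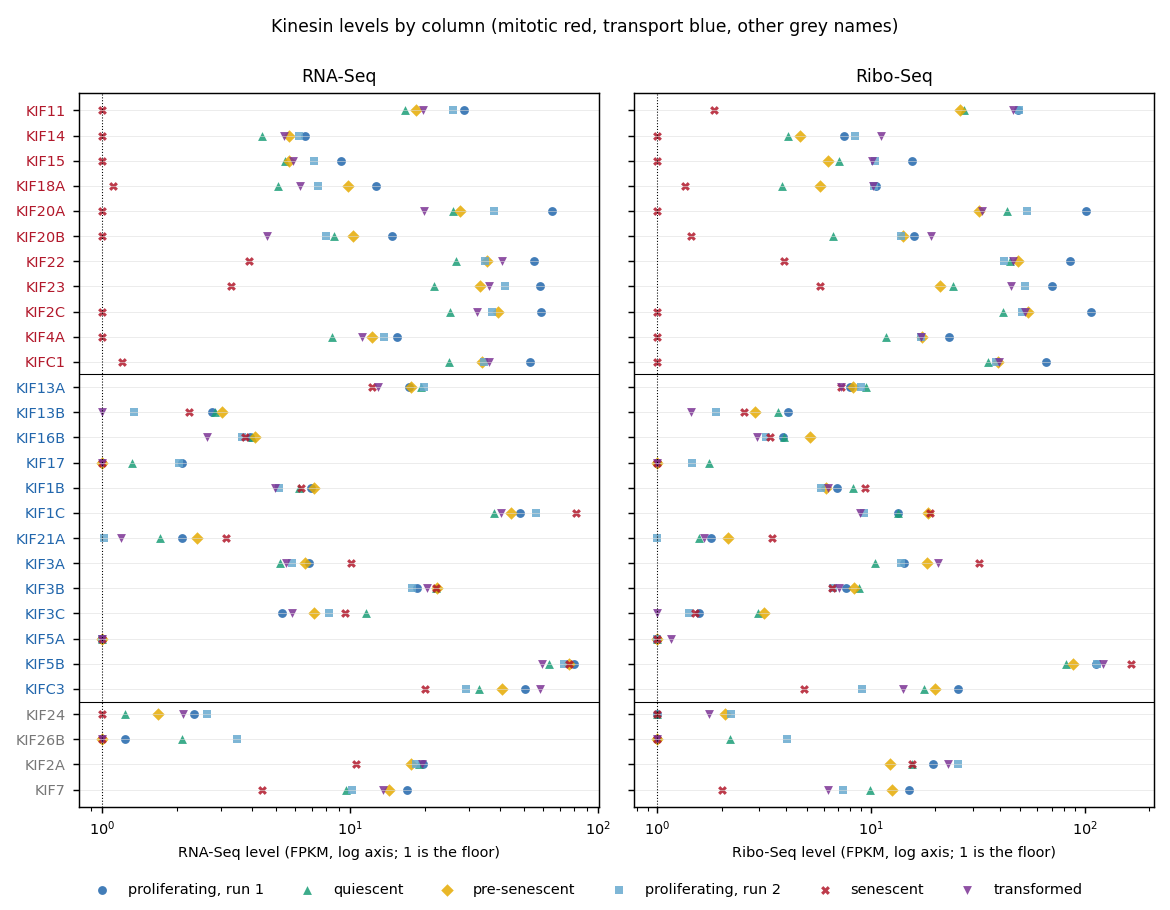
RNA-Seq (left) and Ribo-Seq (right) level of each kinesin in FPKM on a log axis, 1 symbol per column of the table, with mitotic, transport and other kinesins separated by lines and the dotted line at the floor of 1. The senescent crosses of the 11 mitotic kinesins lie at or near the floor, away from all other columns, while those of the transport kinesins lie among or near the other symbols.

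In quiescence, 6 of 11 mitotic kinesins fell 2-fold or more in RNA and none rose, against 2.43% of all transcripts lower and 4.11% higher. The median mitotic RNA difference was -1.05 on the log2 scale, or 2.07-fold lower, and all 11 lay below 0, while the median of all transcripts was -0.01. KIF23 (2.67-fold lower), KIF20A (2.51-fold lower), KIF18A (2.47-fold lower), KIF2C (2.33-fold lower), KIFC1 (2.11-fold lower) and KIF22 (2.07-fold lower) passed. In 10 of 11 the difference was larger than the gap between proliferating columns, with KIF20B the exception. In Ribo-Seq 6 of 11 fell (8.2% of all transcripts lower, 9.31% higher), with a median of -1.15 or 2.21-fold lower. Those 6 were KIF15, KIF18A, KIF20A, KIF20B, KIF23 and KIF2C. Against C3, the proliferating column of the other run, the median RNA difference was -0.54 and the median Ribo-Seq difference -0.57. None of the 6 RNA calls held against C3, where KIF23 was 1.94-fold lower and the other 5 were 1.31-fold to 1.47-fold lower (4.17% of all transcripts were lower by 2-fold). Of the 6 Ribo-Seq calls, those of KIF18A, KIF20B and KIF23 held, whereas KIF15, KIF20A and KIF2C were 1.48-fold, 1.23-fold and 1.22-fold lower than in C3.

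The transport kinesins had a median RNA difference of -0.23 in quiescence over 12 members with a value, none 2-fold lower and 1 higher. That was KIF3C, a partner of KIF3A in kinesin-2, with RNA of 5.29 FPKM in C12, 8.23 in C3, 11.5 in Q, 7.14 in preS, 9.51 in S and 5.84 in Tr. KIF3C Ribo-Seq was 1.57 FPKM in C12, 1.41 in C3, 2.97 in Q, 3.16 in preS, 1.50 in S and 1 in Tr, which is low in every column. Its quiescent RNA was 2.18-fold higher and its Ribo-Seq 1.89-fold higher, and the quiescent RNA level was the highest of the 6 columns, but only 1.40-fold over C3, so that the call ends there. No transport kinesin was called in Ribo-Seq, where the median was 0.00. Against C3 the Ribo-Seq median was 0.46 and KIF3C was 2.11-fold higher, where 9.42% of all transcripts were higher. In RNA the transport median against C3 was 0.15 and KIF13B was 2.13-fold higher, where 4.54% of all transcripts were higher. Of the other 4 kinesins none was called in RNA, and KIF26B was called higher in Ribo-Seq (a bound against a floor value), but 1.86-fold lower against C3.

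In pre-senescent cells, 5 days after RASG12V induction, the mitotic kinesins lay lower with smaller RNA differences. All 11 mitotic kinesins were below C12 in RNA, with a median of -0.62 (1.54-fold lower), and 1 was called lower, KIF20A, against 2.05% of all transcripts lower and 1.82% higher. In Ribo-Seq 3 were called lower, KIF23 (3.34-fold lower), KIF20A (3.16-fold lower) and KIF15 (2.47-fold lower), with a group median of -0.87 or 1.82-fold lower. The backgrounds were 10.6% lower and 7.31% higher, and the median over all transcripts was -0.12. Against C3 the mitotic RNA median was -0.13 and the RNA call of KIF20A ended (1.38-fold lower), as did the Ribo-Seq calls of KIF20A (1.67-fold) and KIF15 (1.65-fold), while that of KIF23 held (2.50-fold). For KIF23 the Ribo-Seq difference was deeper than the RNA difference (1.75-fold lower), which gave the largest mitotic change in translation efficiency of this comparison (-0.94 on the log2 scale).

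Transport kinesins in pre-senescent cells had a median RNA difference of 0.03 and a median Ribo-Seq difference of 0.12. KIF17, the homodimeric kinesin-2, was the 1 member called lower in RNA (at least 2.09-fold lower), from very low levels. KIF17 RNA was 2.09 FPKM in C12, 2.03 in C3, 1.32 in Q, 1 in preS, 1 in S and 1 in Tr, and its Ribo-Seq was 1 FPKM in C12, 1.46 in C3, 1.74 in Q, 1 in preS, 1 in S and 1 in Tr. These values lie near the floor, where low and absent could not be told apart without counts per value. KIF3C was the 1 member called higher in Ribo-Seq (2.01-fold higher), and of the other kinesins KIF24 was called higher in Ribo-Seq against a floor value, but was 1.06-fold lower than in C3. Against C3 the transport RNA call of KIF17 held (at least 2.03-fold lower), and KIF13B (2.28-fold) and KIF21A (2.37-fold) were higher. In Ribo-Seq the call of KIF3C held (2.24-fold), and KIF21A (at least 2.13-fold) and KIFC3 (2.20-fold) were higher. Of all transcripts 6.74% were then lower and 5.14% higher in RNA, and 9.35% higher in Ribo-Seq.

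In senescence, 14 days after induction, 11 of 11 mitotic kinesins fell in RNA and 11 of 11 in Ribo-Seq. Lower calls made up 13.2% of all transcripts in RNA and 16.8% in Ribo-Seq, and higher calls 7.19% and 11.2%. The median mitotic difference was -3.68 in RNA (12.8-fold lower, 7 of 11 values being bounds) and -3.41 in Ribo-Seq (10.6-fold lower, 6 bounds), with all transcripts at -0.02 and -0.12. The smallest mitotic RNA difference was that of KIF14, at least 6.22-fold lower, a bound that equals its level of 6.22 FPKM in C3. Members with a senescent value above the floor in both assays were KIF18A (6.76-fold lower in RNA and 7.67-fold lower in Ribo-Seq), KIF22 (8.92-fold lower and 10.6-fold lower) and KIF23 (12.8-fold lower and 9.04-fold lower). In all 11, in both assays, the difference exceeded the gap between proliferating columns, and all 11 were lower by 2-fold in both assays against C12 as well (17.6% of all transcripts in RNA and 23.3% in Ribo-Seq). If the Ribo-Seq columns S and C3 are exchanged, as their condition labels have it, the Ribo-Seq median becomes 3.41 with the opposite sign to RNA.

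Transport kinesins did not share this fall. In RNA their senescent median was 0.26, with KIF17 called lower (at least 2.03-fold lower) and KIF21A, which restrains microtubule growth, called higher (3.10-fold higher). KIF21A RNA was 2.10 FPKM in C12, 1.02 in C3, 1.71 in Q, 2.42 in preS, 3.16 in S and 1.19 in Tr, so that C3 was 2.06-fold lower than C12 and the senescent level was less far over C12 than over C3. Its Ribo-Seq was 1.79 FPKM in C12, 1 in C3, 1.56 in Q, 2.13 in preS, 3.44 in S and 1.65 in Tr. Against C12 the transport RNA median was -0.071 and the Ribo-Seq median -0.066, so the sign of these small medians rests on the choice of control. In Ribo-Seq the median was 0.26 and 3 were called higher, KIF21A (at least 3.44-fold higher), KIF3A (2.31-fold higher) and KIF1C (2.04-fold higher). Against C12 the calls of KIF21A ended (1.50-fold higher in RNA and 1.92-fold in Ribo-Seq), as did that of KIF1C (1.41-fold higher in Ribo-Seq), while that of KIF3A held (2.25-fold higher). KIFC3 was 2.54-fold lower in RNA and 5.25-fold lower in Ribo-Seq against C12.

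KIF3A, the ciliary and vesicular kinesin-2 subunit, is named for that Ribo-Seq call, after its values were seen. KIF3A RNA was 6.79 FPKM in C12, 5.84 in C3, 5.20 in Q, 6.54 in preS, 10.1 in S and 5.51 in Tr, and KIF3A Ribo-Seq was 14.2 FPKM in C12, 13.8 in C3, 10.4 in Q, 18.3 in preS, 32.0 in S and 20.6 in Tr. The senescent column was the highest in both assays. KIF3B, its partner in the same heterodimer, had RNA of 18.6 FPKM in C12, 17.8 in C3, 22.2 in Q, 22.4 in preS, 22.2 in S and 20.5 in Tr. The Ribo-Seq level was 7.63 FPKM in C12, 6.62 in C3, 8.75 in Q, 8.28 in preS, 6.55 in S and 7.04 in Tr, and neither assay was called in any comparison. In FPKM, KIF3B was above KIF3A in RNA in each of the 6 columns and KIF3A was above KIF3B in Ribo-Seq in each of the 6.

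KIF1C, a fast kinesin-3 that carries vesicles to the cell edge, had RNA of 48.2 FPKM in C12, 55.9 in C3, 38.0 in Q, 44.5 in preS, 81.1 in S and 40.7 in Tr. Its Ribo-Seq level was 13.4 FPKM in C12, 9.27 in C3, 13.3 in Q, 18.4 in preS, 18.9 in S and 8.92 in Tr. The senescent column was the highest in RNA, and in Ribo-Seq the senescent and pre-senescent columns were level. KIF5B, the ubiquitous heavy chain of conventional kinesin, was the most abundant kinesin in the table by median, with RNA of 79.9 FPKM in C12, 72.6 in C3, 63.1 in Q, 76.3 in preS, 75.8 in S and 59.2 in Tr. KIF5B Ribo-Seq was 112 FPKM in C12, 114 in C3, 82.0 in Q, 87.9 in preS, 164 in S and 122 in Tr, highest in the senescent column though never 2-fold from its control. KIFC3, a minus-end motor of vesicles and cell junctions, had RNA of 50.7 FPKM in C12, 29.2 in C3, 33.0 in Q, 40.9 in preS, 19.9 in S and 58.2 in Tr. In Ribo-Seq it stood at 25.5 FPKM in C12, 9.03 in C3, 17.7 in Q, 19.9 in preS, 4.85 in S and 14.1 in Tr. KIFC3 was lowest in senescence in both assays, but C3 was 2.82-fold lower than C12 in Ribo-Seq, a wider gap than that of the senescent column from C3 (1.86-fold lower).

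The remaining transport kinesins were not called in RNA in any of the 4 states against the proliferating column of their own run. KIF13A, a carrier of recycling endosomes, ranged from 12.2 to 19.9 FPKM in RNA. KIF16B, which binds early endosomes, ranged from 2.64 to 4.13, KIF1B, a carrier of synaptic vesicle precursors and mitochondria, from 4.99 to 7.12, and KIF13B from 1 to 3.05. Against the proliferating column of the other run, KIF13B RNA was 2.13-fold higher in Q, 2.28-fold higher in preS and at least 2.77-fold lower in Tr. Of all transcripts 4.54% and 5.14% were then higher in Q and preS, and 4.66% lower in Tr. Its Ribo-Seq in Tr was 2.84-fold lower than in C12, where 10.5% of all transcripts were lower. KIF5A, the neuronal heavy chain, was listed at 1 FPKM in all columns except Ribo-Seq of the column labelled transformed (1.16).

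Of the 4 other kinesins, 3 were called lower in senescence in RNA and the same 3 in Ribo-Seq, where 13.2% and 16.8% of all transcripts were lower, and KIF24 and KIF26B lie near the floor. KIF7, a ciliary regulator of Hedgehog signalling, had RNA of 16.9 FPKM in C12, 10.2 in C3, 9.64 in Q, 14.3 in preS, 4.40 in S and 13.5 in Tr. The Ribo-Seq level was 15.1 FPKM in C12, 7.36 in C3, 9.90 in Q, 12.5 in preS, 2.01 in S and 6.26 in Tr. It was 2.32-fold lower in RNA and 3.66-fold lower in Ribo-Seq. KIF24, a centriolar kinesin that restrains cilium formation, had RNA of 2.35 FPKM in C12, 2.65 in C3, 1.24 in Q, 1.68 in preS, 1 in S and 2.11 in Tr. Its Ribo-Seq level was 1 FPKM in C12, 2.20 in C3, 1 in Q, 2.08 in preS, 1 in S and 1.75 in Tr. KIF26B RNA was 1.24 FPKM in C12, 3.49 in C3, 2.09 in Q, 1 in preS, 1 in S and 1 in Tr, and KIF26B Ribo-Seq was 1 FPKM in C12, 4.05 in C3, 2.18 in Q, 1 in preS, 1 in S and 1 in Tr, so that its senescent and transformed calls rest on the level in C3 (against C12 its RNA was at least 1.24-fold lower in both). KIF2A, a microtubule depolymerase of neurons and spindle poles and the closest relative of KIF2C here, had RNA of 19.6 FPKM in C12, 18.5 in C3, 19.0 in Q, 17.6 in preS, 10.5 in S and 19.5 in Tr. In Ribo-Seq it stood at 19.5 FPKM in C12, 25.5 in C3, 15.6 in Q, 12.2 in preS, 15.5 in S and 22.9 in Tr. Its senescent RNA was 1.75-fold lower, under the 2-fold call, against at least 37.1-fold lower for KIF2C.

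**Figure D2:**
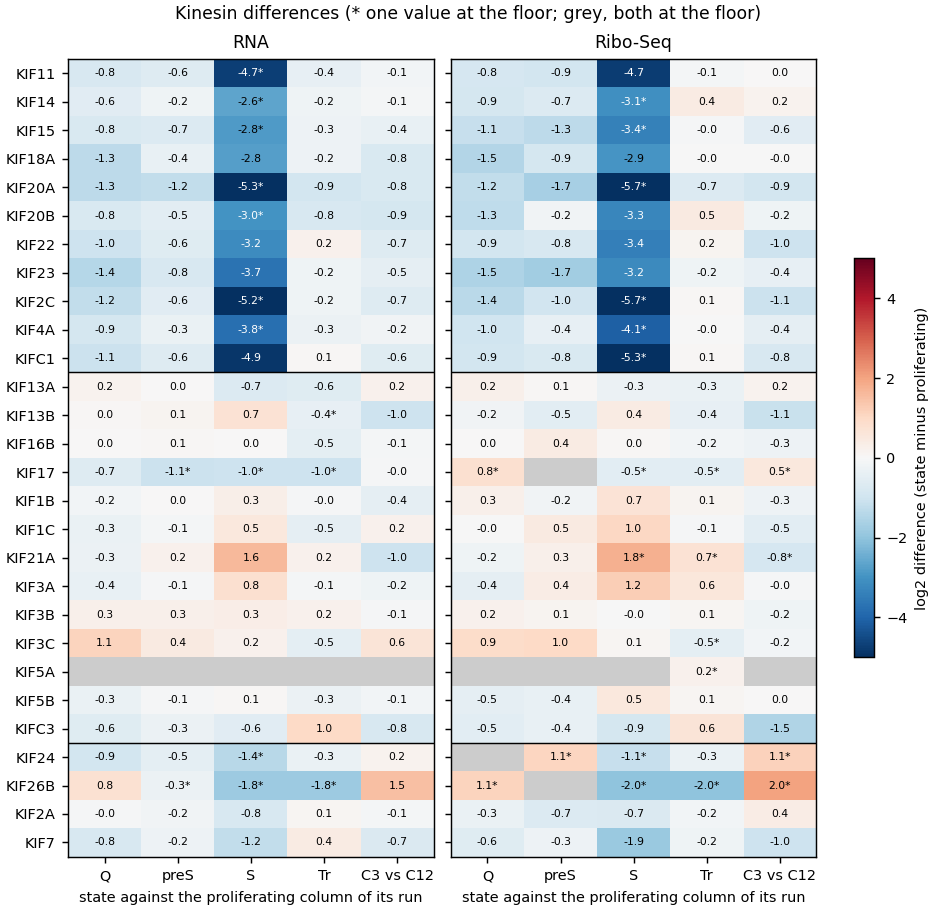
Log2 differences of each kinesin in RNA (left) and Ribo-Seq (right), from left to right in each panel quiescent (Q) and pre-senescent (preS) against C12, senescent (S) and transformed (Tr) against C3, and C3 against C12. A star marks a value with 1 column at the floor, grey means that both were, and the senescent column is dark blue for all 11 mitotic kinesins, which form the top block.

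In the column labelled transformed, no mitotic kinesin was called in either direction in RNA or in Ribo-Seq. The backgrounds were 5.39% lower and 4.97% higher in RNA and 7.44% lower and 5.34% higher in Ribo-Seq. The median mitotic RNA difference was -0.25 (9 of 11 below 0) and the Ribo-Seq median -0.01 (6 of 11 below 0), with RNA differences from -0.94 for KIF20A to 0.23 for KIF22. In 4 of 11 members the RNA difference exceeded the gap between proliferating columns. Against C12 the mitotic Ribo-Seq median was -0.62. With that control 3 mitotic kinesins were 2-fold lower in RNA, KIF20A (3.26-fold), KIF20B (3.20-fold) and KIF18A (2.02-fold), and 2 in Ribo-Seq, KIF20A (3.06-fold) and KIF2C (2.03-fold), against 4.66% and 10.5% of all transcripts. Mitotic RNA in the column labelled transformed was under the quiescent level in 2 of 11 members, KIF20A and KIF20B. Transport kinesins had medians of -0.36 in RNA and 0.09 in Ribo-Seq, with 1 called, KIF17 in RNA (at least 2.03-fold lower), and KIFC3 just under the call at 1.99-fold higher. KIF26B was the 1 other kinesin called, lower in both assays.

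The proliferating columns show how far these values move between runs without a change of state. In RNA the runs also differ in paired-end sequencing. C3 was below C12 in RNA in 11 of 11 mitotic kinesins, with a median of -0.61 (1.53-fold lower) and none called, where 7.97% of all transcripts were called in either direction. In Ribo-Seq 2 were called lower, KIF22 and KIF2C (background 18.9%), and the median was -0.43. In transport kinesins 2 were called lower in RNA, KIF13B and KIF21A, and 2 in Ribo-Seq, KIFC3 and KIF13B. The pre-senescent mitotic RNA median is thus about as large as the gap between proliferating columns, and the senescent one is several times larger.

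**Figure D3:**
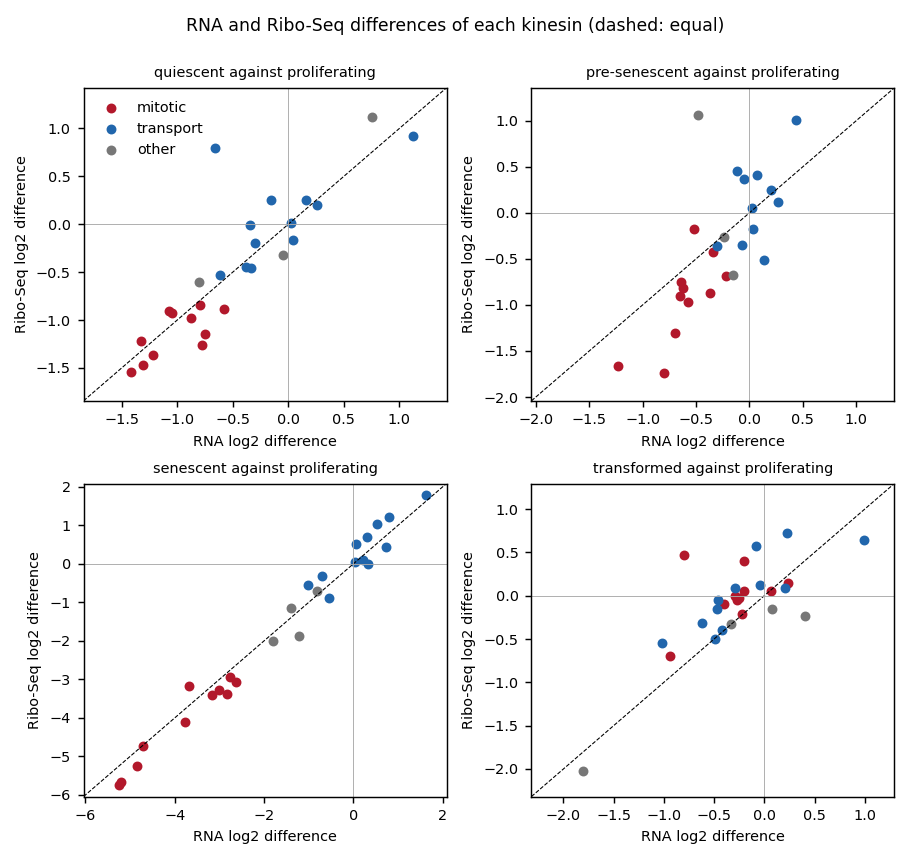
RNA difference (x axis) against Ribo-Seq difference (y axis) of each kinesin on the log2 scale, 1 panel per comparison, with mitotic kinesins in red, transport in blue and other in grey and the dashed line at equal values. In senescence 11 mitotic kinesins lie along the line below -2.6 on both axes and the transport kinesins lie between -1.02 and 1.63 in RNA.

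Across 27 kinesins the senescent RNA and Ribo-Seq differences correlated at r = 0.99, and across 26 the quiescent ones at r = 0.87. For the column labelled transformed r was 0.75 across 27, and for pre-senescent cells 0.73 across 25, beside 0.79 across 27 for C3 against C12, where the state is the same. For the mitotic kinesins alone r was 0.34 in the column labelled transformed, with 8 of 11 of the same sign in both assays. These are correlations across genes, which are not replicates, and the points of a panel share their control columns and the floor. Translation efficiency (TE) is the log2 of the Ribo-Seq over the RNA level, given here only where both exceed 1 FPKM. Since Ribo-Seq is per length of coding sequence and RNA per length of transcript, TE also carries how those lengths were defined.

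No mitotic TE change reached 2-fold in quiescence, where 7.06% of all transcripts were called in either direction (median -0.13, 8 of 11 below 0). None did so in pre-senescent cells (13.2% of all called, median -0.40, 10 of 11 below 0), nor in senescence, where only KIF18A, KIF22 and KIF23 had a value (8.55% of all called, median -0.18). In the column labelled transformed KIF20B was called higher by 1.27 (2.69% of all called), and the mitotic median was 0.24 with 9 of 11 above 0. Over all transcripts the TE medians were -0.06 in Q, -0.15 in preS, -0.04 in S and -0.07 in Tr. The shares of all transcripts below 0 were 55.7%, 58.8%, 52.6% and 57.6%. Between proliferating columns none of the 28 was called (8.51% of all), although KIF20B moved by 0.68. Against C12 the mitotic TE median of the column labelled transformed was 0.050, and KIF20B remained called (3.85-fold higher). No transport or other kinesin was called in TE against the proliferating column of its own run. Against that of the other run, KIF20B was 2.24-fold lower in quiescent and KIF18A 2.37-fold lower in pre-senescent cells. KIF1C was 2.11-fold higher in Q and 2.49-fold higher in preS, and KIF3C 2.58-fold higher in preS. KIFC3 was 2.07-fold lower in S and in Tr. Of all transcripts 6.46%, 11.6%, 9.07% and 6.7% were then lower in Q, preS, S and Tr. In Q and preS 2.8% and 4.77% were higher.

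In level, the median TE of each of the 11 mitotic kinesins over its columns was above 0, and that of 4 of 12 transport kinesins. By column, the mitotic median was 0.58 in C12, 0.48 in quiescent, 0.22 in pre-senescent, 0.45 in C3, 0.30 in senescent (3 genes) and 0.70 in the column labelled transformed, and all transcripts had medians of 0.41, 0.33, 0.26, 0.43, 0.38 and 0.36. The transport medians were -0.23, -0.08, -0.22, -0.48, -0.17 and 0.15, below that of all transcripts in each column. Transport kinesins spread far more widely. KIF1C had TE between -2.59 and -1.28, with 0.69% to 7.18% of all transcripts below it in a column, and KIF3B had TE between -1.76 and -1.29. KIF3C lay between -2.66 and -1.18, KIFC3 between -2.05 and -0.90, and KIF13A between -1.15 and -0.76. At the other end KIF3A lay between 1.00 and 1.90, with 75.2% to 93.9% of all transcripts below it, and KIF5B between 0.20 and 1.11. KIF20B in the column labelled transformed, at 2.06, had 95.7% of all transcripts below it.

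Of 12 listed partners 11 were in the table (ECT2 was not analysed here), and 8 fell 2-fold in RNA in quiescence, 1 in pre-senescent cells, 11 in senescence and 1 in the column labelled transformed. Of all transcripts 2.43%, 2.05%, 13.2% and 5.39% were lower, so that the single calls lie near the background. Against the proliferating column of the other run 1 of the 8 quiescent calls held, the pre-senescent one did not, and all 11 senescent calls and the 1 of the column labelled transformed did. PRC1, the cross-linker that brings KIF4A to the central spindle, had RNA of 124 FPKM in C12, 80.5 in C3, 56.8 in Q, 72.1 in preS, 2.25 in S and 66.8 in Tr. RACGAP1, the other part of centralspindlin beside KIF23, had RNA of 59.8 FPKM in C12, 51.3 in C3, 31.8 in Q, 43.0 in preS, 7.16 in S and 40.2 in Tr. Senescent RNA differences of the 11 ran from 4.59-fold lower for AURKA, a spindle pole kinase, to at least 47.8-fold lower for NUSAP1, a spindle-associated protein. AURKB, the kinase that KIF20A moves, had RNA of 47.0 FPKM in C12, 32.8 in C3, 18.7 in Q, 37.6 in preS, 1 in S and 37.1 in Tr. CENPE, itself a kinetochore kinesin under another symbol, had RNA of 10.1 FPKM in C12, 6.69 in C3, 5.02 in Q, 6.04 in preS, 1 in S and 3.05 in Tr, and its TE was called higher in the column labelled transformed (2.41-fold higher), as was that of CENPF (2.53-fold higher). Of all transcripts 2.69% were called in TE in either direction in that comparison. CENPE TE was already 2.22-fold higher in C3 than in C12. Against C12 the TE calls of CENPE and CENPF both held, where 5.29% of all transcripts were higher. The partners' senescent median was -4.31 in RNA and -4.31 in Ribo-Seq.

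Of 14 listed cargo adaptors and parts of the opposing motor dynein, none was called in RNA in any of the 4 comparisons. Their senescent RNA median was 0.39, with 13 of 14 above 0. In Ribo-Seq, MAPK8IP3, an adaptor of kinesin-1, was called higher in quiescent (2.01-fold higher) and pre-senescent cells (4.28-fold higher), from 1.55 FPKM in C12. KLC4, a kinesin light chain, was 2.76-fold higher in quiescent cells. RAB6A, a Golgi GTPase, was 2.07-fold lower in pre-senescent cells, the 1 lower call of the list. MAPK8IP3 was also called higher in the column labelled transformed, against a floor value. TRAK2, a mitochondrial adaptor, was 2.71-fold higher and DYNC1H1, the dynein heavy chain, 2.10-fold higher in senescence. DYNC1H1 Ribo-Seq was 157 FPKM in C12, 84.4 in C3, 234 in Q, 214 in preS, 177 in S and 153 in Tr, so its senescent level lay within the range of the other columns. These Ribo-Seq calls were 2 higher in quiescent, 1 in pre-senescent, 2 in senescent cells and 1 in the column labelled transformed, of 14, where 9.31%, 7.31%, 11.2% and 5.34% of all transcripts were higher, and 1 lower in pre-senescent cells, where 10.6% were, all near the background. Against the other proliferating column only MAPK8IP3 in quiescent and pre-senescent cells kept its call.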

How the data were processed

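The deposited values are FPKM, which the authors computed from reads aligned with Bowtie to 1 transcript per gene, the isoform of longest coding sequence in an Ensembl annotation, keeping uniquely mapped reads. RNA FPKM covers the transcript and Ribo-Seq FPKM the coding sequence. The authors set values under 1 to 1 and kept transcripts with enough reads in both assays. How replicate samples were joined into a column is not given in the sources used here, and the table holds no counts per value. Library read totals given by the study were not used here, so no interval is given. The table holds 12 columns of values, all mapped to a state by name, and 0 others were left aside.

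From these values log2 differences without a pseudocount, TE and class medians were computed over all 9699 transcripts and read for the kinesins (Python 3.11.15, numpy 2.4.6, pandas 2.3.3, matplotlib 3.10.9). A fold of 2 or more was called, and no difference was taken where both values were at 1. The scripts were tested on simulated data. Kinesins, partner lists and classes were chosen with earlier results of these data known. Values in every column are given for each mitotic kinesin, each other kinesin 2-fold different in RNA in any comparison and the 5 non-mitotic kinesins of highest median RNA, and partners are named where called. Alternatives were a pseudocount of 1 FPKM, a mean above 5 FPKM, centring on the all-transcript median, the other proliferating column, KIF2A as mitotic and exchange of Ribo-Seq columns S and C3. The check of the other knockdown in the transformed cells is not reported here.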

Additional observations from a re-analysis of the deposited data

How the results depend on the processing

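Values are median log2 differences, and transformed stands for the column so labelled. Spread here is the standard deviation that the gap between proliferating columns gives, which is smaller than the gap. For mitotic RNA it was 0.43, where the median gap was 0.61. Changing the proliferating column to that of the other run moved 16 of 24 medians by more than this spread. That change shifts each difference by the gap itself, so it is not an independent check. For mitotic kinesins RNA became -0.54 in quiescent and -0.13 in pre-senescent cells, Ribo-Seq -0.57 in quiescent, -4.44 in senescent and -0.62 in transformed, and TE 0.55 in senescent and 0.050 in transformed cells. For transport kinesins RNA became 0.15 in quiescent and -0.071 in senescent cells, Ribo-Seq 0.46 in quiescent, 0.51 in pre-senescent, -0.066 in senescent and -0.14 in transformed, and TE 0.15 in quiescent, 0.15 in pre-senescent and -0.15 in senescent cells. Exchanging Ribo-Seq columns S and C3 turned the mitotic senescent Ribo-Seq median to 3.41 and moved the transformed one to 3.73 and mitotic TE to 6.57 (senescent) and 3.33 (transformed). Transport Ribo-Seq became -0.26 (senescent) and -0.50 (transformed), and transport TE -0.44 and -0.13. A pseudocount of 1 FPKM gave -2.88 for senescent mitotic RNA. Keeping genes with a mean above 5 FPKM gave transport medians of -0.19 (transformed RNA), 0.52 (senescent Ribo-Seq) and 0.39 (senescent TE), and centring gave 0.15 for pre-senescent transport TE. The other 23 medians under the pseudocount, 21 under the mean level, 23 under centring and 12 with KIF2A as mitotic stayed within the spread. The sign of the mitotic RNA medians was the same in all RNA alternatives.

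Leaving out a replicate was not run, since replicates share a column. No paired analysis was possible because the columns carry no replicate numbers that the states compared share. The floor of 1 FPKM limits 7 of 11 senescent mitotic RNA folds to bounds.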
